A study of Homo sapiens with 6 samples.

Results

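The genes described here are those of the count table whose symbol begins with CEP and a number (centrosomal proteins), with IFT and a number (intraflagellar transport proteins) or with BBS and a number (Bardet-Biedl syndrome proteins). The rule found 58 of the 20030 listed genes, namely 36 CEP, 14 IFT and 8 BBS genes, and used their names alone. They were measured by sequencing of polyadenylated RNA in HepG2, an established human hepatoma line. Cells carried either a lentiviral control hairpin (sh-ctrl, 3 libraries) or a lentiviral hairpin against KIF11 (sh-KIF11, 3 libraries), and both groups therefore shared the viral vector and its puromycin selection. How many different KIF11 hairpins the sh-KIF11 libraries stand for is not given in the sources used here, and nothing in the labels states that the libraries of a group came from separate cultures, so the p-values measure the spread between these libraries, which may be technical.

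The centrosome is built from a pair of centrioles in a cloud of pericentriolar material, and it organises microtubules in interphase and at the spindle poles. When a cell leaves the division cycle, the older centriole can dock at the membrane through its distal appendages and become the base of a primary cilium, a microtubule-based antenna. Cargo moves along the cilium on IFT trains. The IFT-B complex travels outwards with a heterotrimeric kinesin, the IFT-A complex returns with the ciliary dynein, and the BBSome is an adaptor that couples membrane proteins to these trains. KIF11, the gene knocked down here, encodes the mitotic kinesin that pushes spindle poles apart. In liver, primary cilia are a feature of bile duct cells and are largely absent from hepatocytes. The data are mRNA levels, and neither centrioles nor cilia were observed in them.

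Depth lay between 18167773 and 19583282 counts per library. KIF11 itself was lower after knockdown, with 115.8 ± 5.01 CPM (counts scaled to the depth of the library, with edgeR's TMM factors) under sh-ctrl and 68.8 ± 5.16 under sh-KIF11 (SD of 3 libraries), and its groups did not overlap. Of 12369 genes with enough counts to be tested, 69.1% were called at the 0.05 threshold (edgeR's quasi-likelihood test, Benjamini-Hochberg adjusted), with 34.4% higher and 34.7% lower after knockdown, so each count of members is read against a background in which most genes changed. Hepatocyte markers were abundant in both groups, but 7 of 8 were lower in sh-KIF11, with the summed level falling from between 7529 and 8098 FPKM (fragments scaled to transcript length and library depth) to between 3073 and 3305. Among the markers of other cell types, COL1A1, COL1A2, COL3A1, DCN, LUM, PTPRC and CD3E were at or near 0 in every library. The summed level of the 7 fibroblast markers went from between 28.0 and 28.8 FPKM to between 65.7 and 70.9, nearly all of it ACTA2, while PDGFRB, the other fibroblast marker with enough counts to be tested, was lower at a log2 fold change of -1.16. The 4 endothelial markers summed to between 0.258 and 0.293 FPKM in sh-ctrl and between 0.416 and 0.437 in sh-KIF11, and the 5 immune markers to between 24.1 and 27.3 and between 16.7 and 17.7. Most of the immune sum was CD68, at 24.4 FPKM in sh-ctrl and 14.7 in sh-KIF11, whereas CD79A was higher in sh-KIF11, at 2.37 FPKM against 0.518. Their part in the results was not tested. In bulk RNA, fewer cells that express a gene and less of its RNA per cell cannot be told apart.

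Genes of all 3 families were higher in sh-KIF11 far more often than they were lower. Of the 55 members with enough counts, 32 passed the test as higher in sh-KIF11 and 2 as lower, while 21 did not pass. These shares, 58.2% and 3.64%, stand beside 34.4% and 34.7% of all tested genes. Every one of the 55 had at least 10 counts in each library, so none was tested only because it was high in 1 group. CEP genes gave 22 higher, 2 lower and 11 not called out of 35. IFT genes gave 6 higher and 6 not called out of 12, and BBS genes gave 4 higher and 4 not called out of 8, and no member of either family was called lower. The median log2 fold change was 0.33 over CEP genes, 0.27 over IFT genes and 0.31 over BBS genes, against 0.00 over all tested genes. Changes of at least 2-fold were found for 5 members, all CEP genes and all higher, which is 5 of 55 against 8.13% of all tested genes. None was 2-fold lower, where 3.52% of tested genes were. In CPM, 34 members lay wholly higher and 3 wholly lower in sh-KIF11 without overlap of the groups, where 35.4% and 35.8% of all tested genes did so (71.2% in either direction).

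**Figure D1:**
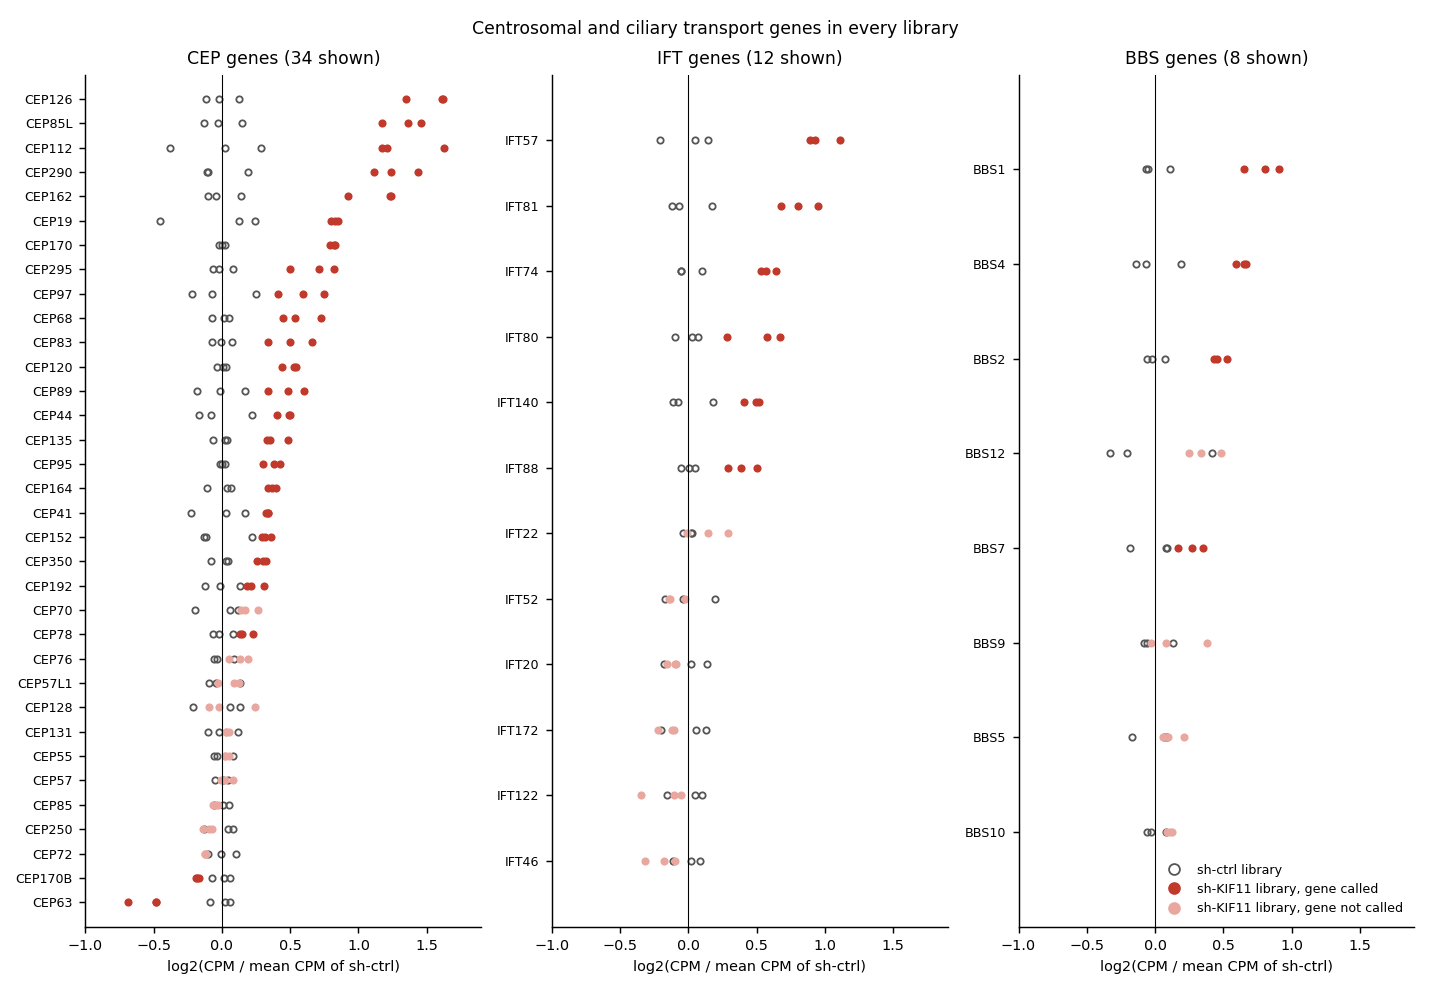
Each row is one gene and each point one library, placed on the x axis by the log2 ratio of its CPM to the mean CPM of the 3 sh-ctrl libraries (open grey, sh-ctrl; filled red, sh-KIF11, pale where the gene was not called), for 34 of the 35 tested CEP genes and all tested IFT and BBS genes. Most filled points lie to the right of the open ones, 22 of 35 CEP, 6 of 12 IFT and 4 of 8 BBS genes being called higher. CEP63 lies furthest to the left, and CEP170B is the other gene called lower.

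Per transcript length, the members were low to moderate in HepG2. In FPKM, as the authors computed it, CEP55 was the most abundant CEP gene at 12.4 ± 0.775 in sh-ctrl, followed by CEP57 at 8.54 ± 0.241 and CEP85 at 8.53 ± 0.216 (SD, n = 3). The last 2 did not differ beyond their spread. IFT52 led the IFT genes at 12.9 ± 2.24 FPKM in sh-ctrl, ahead of IFT20 at 3.37 ± 0.185 (SD, n = 3). BBS2 led the BBS genes at 10.4 ± 0.288 FPKM, ahead of BBS10 at 4.24 ± 0.0842 (SD, n = 3). The lowest tested member was CEP112 at 0.0380 ± 0.0133 FPKM. Summed over the family, CEP genes lay between 94.0 and 97.0 FPKM in sh-ctrl and between 117.9 and 120.4 in sh-KIF11. IFT genes lay between 28.1 and 32.6 and between 36.9 and 37.2, and BBS genes between 25.4 and 26.8 and between 38.8 and 40.2, so no family's sums overlapped between the groups. In FPKM the median change of all tested genes was also upward, at 0.12 on log2(FPKM + 1) and 0.17 on log2(FPKM + 0.1). How much of the rise in the sums this shift makes up was not tested.

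**Figure D2:**
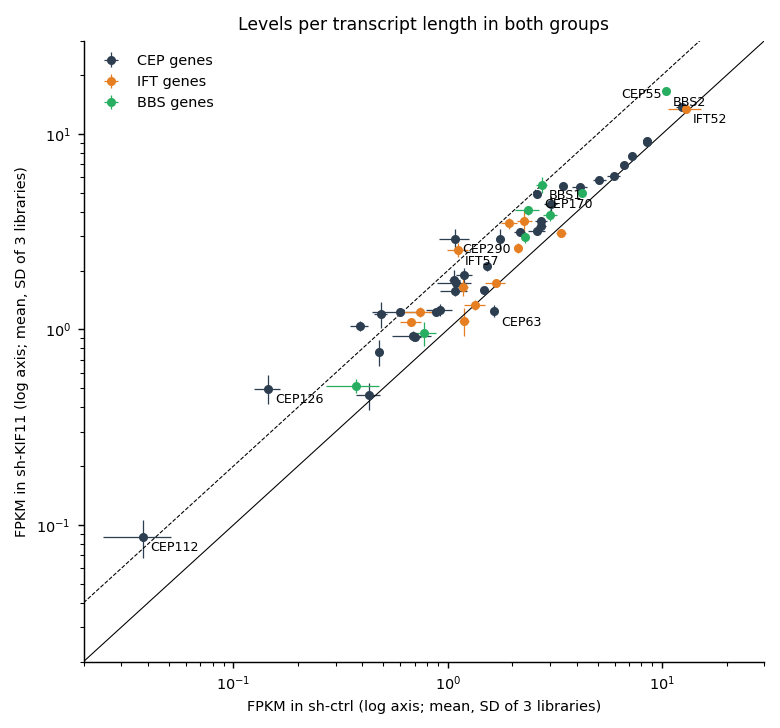
Mean FPKM of each tested member in sh-ctrl (x axis) and sh-KIF11 (y axis), both on log axes, with the SD of 3 libraries as bars; the solid line marks equal levels and the dashed line a 2-fold rise. CEP290, CEP126, CEP112, IFT57 and BBS1 are among the genes above the dashed line and CEP63 lies below the solid line, while CEP55 and IFT52, the most abundant CEP and IFT genes, lie close to the solid line. In the TMM-scaled fit IFT57, at a log2 fold change of 0.98, and BBS1, at 0.79, rose by less than 2-fold.

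CEP295NL, IFT43 and IFT27 had too few counts to be tested. CEP295NL, a gene named for its likeness to CEP295, counted 2, 0 and 0 reads under sh-ctrl against 2, 0 and 4 under sh-KIF11. IFT43, an IFT-A subunit, was read 2, 0 and 0 times in the control libraries and 4, 6 and 2 times after knockdown. IFT27, a small GTPase of IFT-B, counted 0, 0 and 1 reads under sh-ctrl against 0, 1 and 0 under sh-KIF11, and was listed at 0 FPKM in all 6 libraries. A difference in these genes was not detectable at this depth, where 3 counts, the limit that a count of 0 allows, correspond to between 0.145 and 0.178 CPM and cover counting error only. The annotation release and the strand setting of the counting are not given in the sources used here, so whether the counting left out reads of these genes was not tested.

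Among CEP proteins of the ciliary transition zone, axoneme and centriolar satellites, 5 of 8 rose, and the group held the CEP gene with the largest rise. The counts of this and the following role groups stand beside 34.4% higher and 34.7% lower among all tested genes. CEP126 (chromosome 11, 101915015 to 102001058, plus strand, GRCh38), a protein of the centriole and cilium base, was read 35, 30 and 30 times in the control libraries and 92, 114 and 109 times after knockdown. Every sh-KIF11 library was well above every sh-ctrl library, and the mean went from 1.80 ± 0.151 to 5.21 ± 0.538 CPM (SD of 3 libraries), a log2 fold change of 1.53 (SE 0.201). By edgeR's quasi-likelihood test the Benjamini-Hochberg adjusted p of CEP126 was 1.09e-08.

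CEP290 (chromosome 12, 88049014 to 88142216, minus strand) links the membrane to the microtubule doublets of the transition zone, and mutations in it cause several ciliopathies. It counted 297, 369 and 280 reads under sh-ctrl against 776, 1003 and 834 under sh-KIF11. The level rose from 17.9 ± 2.21 to 43.1 ± 4.95 CPM (SD of 3 libraries), and the log2 fold change was 1.27 (SE 0.0880). The lowest sh-KIF11 library of CEP290 lay far above the highest sh-ctrl library (edgeR quasi-likelihood, Benjamini-Hochberg adjusted p = 2.14e-16).

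CEP162, a microtubule-binding protein that helps to bring transition zone components to the axoneme, was read 110, 98 and 88 times in the control libraries and 213, 273 and 259 times after knockdown. Its log2 fold change was 1.13 (SE 0.127). CEP41, which takes part in tubulin glutamylation in cilia, rose less, with a log2 fold change of 0.33, and its call was lost without sh-ctrl library 2, at 0.23. CEP78 had the smallest called rise among all members at 0.17, and that call was lost in each of 5 fits that left out a library. CEP131 (0.04) and CEP72 (-0.12) did not pass. CEP131 was called higher in 4 of the 16 alternative fits, among them the GC and length correction described further on, at 0.27. The plot of the largest changes shows the libraries of the first 3 genes of this group.

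Appendage proteins, which anchor the older centriole and start the cilium, were higher in 6 of 7 cases. CEP170, a marker of the subdistal appendages, counted 679, 675 and 624 reads under sh-ctrl against 1302, 1379 and 1305 under sh-KIF11. Its 3 libraries agreed closely within each group, at 37.5 ± 0.554 and 65.9 ± 0.896 CPM (SD of 3 libraries), with a log2 fold change of 0.81 (SE 0.0644) and a Benjamini-Hochberg adjusted p of 1.27e-14 by edgeR's quasi-likelihood test. CEP170 has a pseudogene copy, CEP170P1 on chromosome 4, and reads shared with it could have been counted for either.

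CEP19, which recruits the switch for IFT entry at the cilium base, was a low gene, read 22, 36 and 31 times in the control libraries and 59, 63 and 59 times after knockdown. Its log2 fold change was 0.82 (SE 0.238). CEP83, the innermost protein of the distal appendages, was read 238, 229 and 238 times in the control libraries and 380, 438 and 333 times after knockdown, a log2 fold change of 0.51 (SE 0.0969).

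CEP164, the outer distal appendage protein that recruits the kinase TTBK2, counted 759, 753 and 636 reads under sh-ctrl against 1051, 1106 and 1013 under sh-KIF11. The groups did not overlap, and the log2 fold change was 0.37 (SE 0.0681). CEP164 also has a pseudogene copy, CEP164P1 on chromosome 10, so its counts carry the same uncertainty as those of CEP170. CEP89, another distal appendage protein, was at 0.48, and CEP350, which binds microtubules near the centriole, at 0.29. CEP128 of the subdistal appendages, at 0.05, was the member of the group that did not pass.

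Genes of centriole duplication and elongation were split, with 7 higher, 1 lower and 4 not called out of 12. CEP295, which turns new centrioles into ones that can organise material, was read 271, 282 and 283 times in the control libraries and 520, 579 and 441 times after knockdown, a log2 fold change of 0.68 (SE 0.0899). CEP97, a cap protein that holds back cilium growth with CCP110, was at 0.59, CEP120, which supports centriole elongation, at 0.50 and CEP44 at 0.47. The scaffold genes of early duplication moved by less.

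CEP135, a protein of the cartwheel base, counted 195, 184 and 183 reads under sh-ctrl against 273, 309 and 264 under sh-KIF11, and its log2 fold change was 0.39 (SE 0.103). CEP152, which recruits the duplication kinase PLK4, was read 188, 242 and 180 times in the control libraries and 297, 292 and 283 times after knockdown, a log2 fold change of 0.32 (SE 0.105). CEP192, the scaffold of mitotic pericentriolar material, counted 771, 721 and 805 reads under sh-ctrl against 1083, 1047 and 979 under sh-KIF11, a log2 fold change of 0.24 (SE 0.0701). In all 3 of these genes the sh-KIF11 libraries lay above the sh-ctrl libraries in CPM. After the GC and length correction none of the 3 was called, with CEP135 at -0.0068, CEP152 at 0.058 and CEP192 at 0.0094. The calls of CEP97, at 0.19, and CEP44, at 0.074, were lost there too.

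CEP63 (chromosome 3, 134485721 to 134575017, plus strand), the partner that brings CEP152 to the centriole, went the other way. It was read 333, 374 and 340 times in the control libraries and 285, 294 and 243 times after knockdown. The level fell from 19.8 ± 1.06 to 13.6 ± 1.09 CPM (SD of 3 libraries), with a log2 fold change of -0.55 (SE 0.0930) and a Benjamini-Hochberg adjusted p of 2.00e-06 by edgeR's quasi-likelihood test. CEP63 was the member with the largest fall, and it was lower and called in all 16 alternative fits, while its partner CEP152 was higher in the same libraries. CEP76 (0.12), CEP57L1 (0.06), CEP57 (0.03) and CEP85 (-0.05) did not pass. CEP57 was called lower after the GC and length correction, at -0.21, and higher in 1 of the 16 alternative fits.

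CEP55 (chromosome 10, 93496632 to 93529092, plus strand) was among the 11 CEP genes that did not pass. It is the midbody protein that recruits the membrane-cutting machinery at the end of cytokinesis, and unlike most CEP genes it is best known as a cell-cycle gene. It counted 770, 768 and 791 reads under sh-ctrl against 918, 931 and 887 under sh-KIF11, which after scaling was 44.2 ± 2.33 and 45.2 ± 0.449 CPM (SD of 3 libraries). The groups overlapped, and the log2 fold change of 0.03 (SE 0.0681) did not pass, though scaled by library totals alone it was called at 0.26. In the same libraries 11 of 12 proliferation markers were lower and 1, CENPF, was higher, with a median of -0.48.

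Of the genes that hold the centrioles together, CEP68 was higher with a log2 fold change of 0.57. CEP250, the large linker protein also called C-Nap1, was read 2611, 2703 and 2179 times in the control libraries and 2664, 2794 and 2542 times after knockdown. Its groups overlapped, and the value of -0.10 (SE 0.0538) did not pass with all libraries, but CEP250 was called lower without sh-ctrl library 3, at -0.17, and after the GC and length correction described further on, at -0.14. Scaled by library totals alone it was called higher, at 0.13. The kinase NEK2, which releases this linker before mitosis, fell by 0.72 on the log2 scale.

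The remaining CEP genes held the largest rises after that of CEP126. CEP85L, a paralogue of CEP85, counted 72, 68 and 77 reads under sh-ctrl against 213, 234 and 183 under sh-KIF11, a log2 fold change of 1.34 (SE 0.140), whereas CEP85 itself was at -0.05. CEP112 was near the limit of detection in sh-ctrl, with 14, 17 and 10 counts, and had 35, 37 and 47 after knockdown, a log2 fold change of 1.34 (SE 0.309). The call of CEP112 was lost with limma on log2(FPKM + 1), where the value was 0.07, and on log2(FPKM + 0.1), where it was 0.44. CEP95 was at 0.37, and CEP70, at 0.19, did not pass, though several alternative fits called it higher, among them the one without sh-ctrl library 1, at 0.26. CEP170B, the paralogue of CEP170, was the other member called lower, at -0.18, but it turned to 0.05 when scaled by library totals alone and on both FPKM scales.

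**Figure D3:**
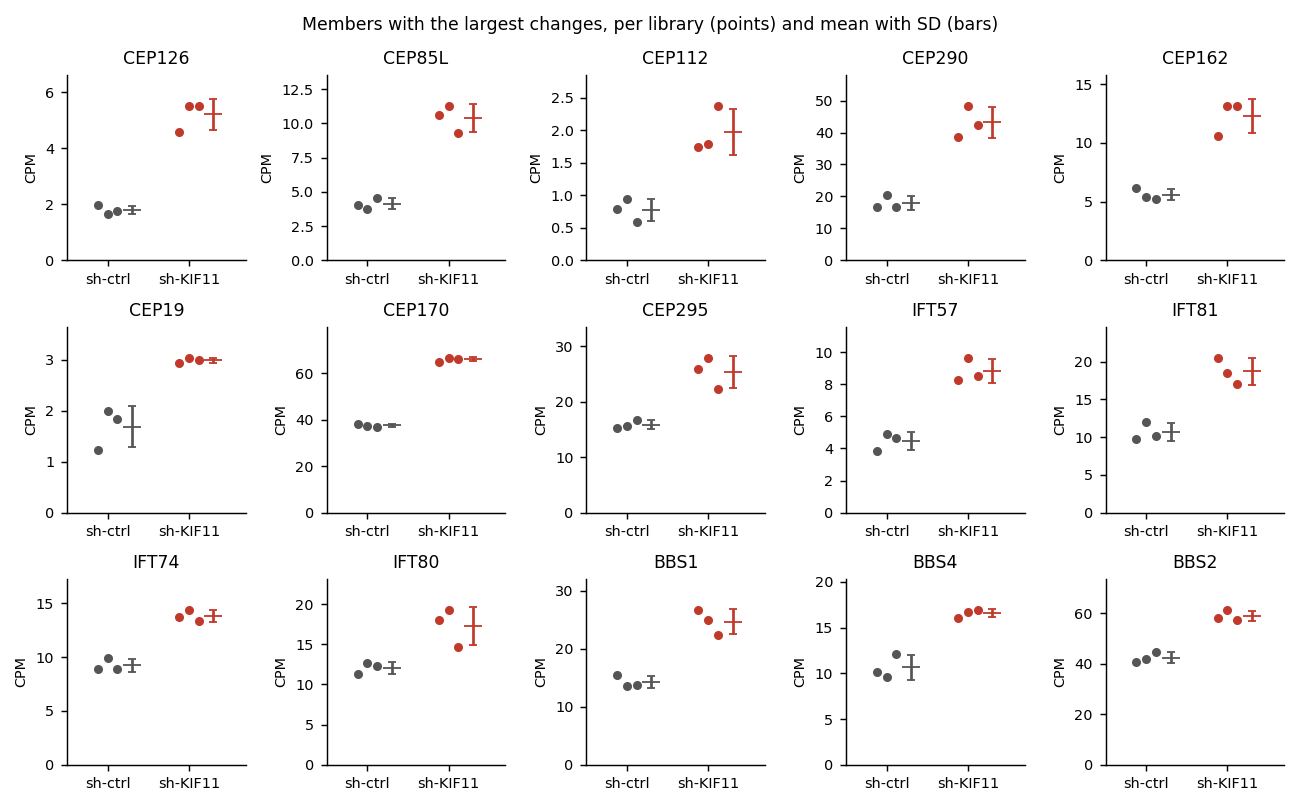
CPM of the 8 CEP, 4 IFT and 3 BBS genes with the largest changes among those called without overlap, each panel with its own y axis from 0; points are libraries and the bars beside them are the mean with the SD of 3. In every panel the 3 sh-KIF11 libraries (red) lie above the 3 sh-ctrl libraries (grey), for CEP290 between 38.7 and 48.5 CPM against between 16.6 and 20.4.

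In the IFT-B complex 5 of 10 tested subunits rose and 5 did not pass, where 34.4% of all tested genes were higher. IFT57 was read 69, 89 and 78 times in the control libraries and 166, 200 and 168 times after knockdown. It had the largest change of the family, from 4.47 ± 0.547 to 8.82 ± 0.741 CPM (SD of 3 libraries), a log2 fold change of 0.98 (SE 0.144) and a Benjamini-Hochberg adjusted p of 1.19e-07 by edgeR's quasi-likelihood test. IFT57 (chromosome 3, 108160812 to 108222570, minus strand) belongs to the peripheral part of the train, which connects it to the kinesin.

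IFT81 and IFT74 form the tubulin-binding module of IFT-B, and both rose. IFT81 counted 175, 217 and 171 reads under sh-ctrl against 412, 384 and 336 under sh-KIF11, a log2 fold change of 0.81 (SE 0.103). IFT74 was read 159, 179 and 150 times in the control libraries and 275, 298 and 264 times after knockdown, a log2 fold change of 0.58 (SE 0.107). Neither gene's groups overlapped.

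IFT80, whose loss causes a skeletal ciliopathy, counted 201, 229 and 208 reads under sh-ctrl against 361, 399 and 290 under sh-KIF11, a log2 fold change of 0.52 (SE 0.103). In GENCODE release 29, 27.2% of the exon bases of IFT80 are shared with another annotated gene of the same strand, AC079594.2, so its counts carry that uncertainty. IFT88, the subunit mutated in a classic mouse model of polycystic kidney disease, was read 223, 243 and 220 times in the control libraries and 370, 329 and 335 times after knockdown, a log2 fold change of 0.40 (SE 0.0961). The calls of IFT80 and IFT88 were lost after the GC and length correction, with both at 0.17.

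The core subunits IFT52 (-0.10), IFT46 (-0.19) and IFT22 (0.14) and the peripheral subunits IFT20 and IFT172 did not pass. IFT20 counted 163, 205 and 177 reads under sh-ctrl against 186, 200 and 191 under sh-KIF11, a log2 fold change of -0.11 (SE 0.115). IFT172, which takes part in the turnaround of trains at the ciliary tip, was read 477, 507 and 378 times in the control libraries and 474, 456 and 472 times after knockdown, a log2 fold change of -0.15 (SE 0.0846). The tested IFT-B subunits with an IFT name thus ran from -0.19 for IFT46 to 0.98 for IFT57.

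In IFT-A the tested subunits differed in the same way. IFT140 counted 351, 297 and 271 reads under sh-ctrl against 492, 477 and 490 under sh-KIF11, and rose by a log2 fold change of 0.47 (SE 0.0879). IFT122 was read 337, 329 and 267 times in the control libraries and 278, 339 and 335 times after knockdown, a value of -0.17 (SE 0.0964) that did not pass with all libraries. Without sh-ctrl library 3, IFT122 at -0.24 and IFT172 at -0.24 were called lower, and without sh-ctrl library 1 IFT52 at -0.17 was.

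All 6 BBSome subunits had positive values and 4 of them rose. BBS1 (chromosome 11, 66510606 to 66533627, plus strand), the subunit that binds the GTPase ARL6, counted 275, 246 and 232 reads under sh-ctrl against 536, 516 and 442 under sh-KIF11. The level went from 14.3 ± 1.0 to 24.7 ± 2.16 CPM (SD of 3 libraries), a log2 fold change of 0.79 (SE 0.0904) and a Benjamini-Hochberg adjusted p of 3.60e-10 by edgeR's quasi-likelihood test. In GENCODE release 29 another gene of the same strand, AP002748.4, shares 53.9% of the exon bases of BBS1.

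BBS4, which contacts the satellite protein PCM1, was read 181, 174 and 205 times in the control libraries and 323, 346 and 334 times after knockdown, a log2 fold change of 0.64 (SE 0.103). BBS2, the most abundant BBS gene, counted 727, 754 and 755 reads under sh-ctrl against 1168, 1268 and 1128 under sh-KIF11, a log2 fold change of 0.47 (SE 0.0660). The groups of both genes were well apart. BBS7 was called at 0.26, but its call was lost without sh-ctrl library 2 and without sh-KIF11 library 3.

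BBS9, the scaffold of the BBSome, was read 138, 162 and 133 times in the control libraries and 214, 166 and 171 times after knockdown. Only sh-KIF11 library 1 lay clearly above the others, and the value of 0.15 (SE 0.127) did not pass. BBS5 was at 0.13. The chaperonin-like proteins BBS12 (0.35, SE 0.284) and BBS10 (0.11, SE 0.0968), which assemble the BBSome, did not pass either.

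Genes that work with these proteins under other names were listed together with the members. Their counts come from the fit with TMM scaling alone and stand beside 34.4% higher and 34.7% lower among all tested genes. Of 13 partners (the other IFT subunits, TTC8, BBIP1, ARL6 and MKKS), 7 were higher and none lower by edgeR's quasi-likelihood test, with a median log2 fold change of 0.39. WDR35 of IFT-A was at 1.14, and the IFT-B subunits TTC30A and TTC30B were at 1.13 and 1.30.

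The ciliary motors had the highest median of these lists at 0.64, with 8 of 9 higher and 1 lower. DYNC2H1, the heavy chain of the ciliary dynein that returns IFT trains, counted 23, 26 and 23 reads under sh-ctrl against 123, 97 and 130 under sh-KIF11, a log2 fold change of 2.08 (SE 0.213). KIF17, an accessory ciliary kinesin, was at 1.67. WDR34, an intermediate chain of the same dynein, fell by 0.49 on the log2 scale.

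Transition zone proteins were higher in 8 cases and lower in 4 of 16, with CC2D2A at 1.16, TMEM231 at 1.15 and TCTN3 at -0.61. In contrast, 29 other centrosome genes gave 9 higher, 11 lower and 9 not called, with a median of 0.02. NIN, a subdistal appendage protein, was at 1.0 and CCP110, the partner of CEP97, at 0.75, whereas the γ-tubulin gene TUBG1 was at -0.77 and MZT1, a subunit of its ring complex, at -1.18.

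Among the transcription factors of cilium genes, 4 of the 6 tested were higher and 1 was lower. RFX3 was at 0.52, FOXJ1 at 0.27 and RFX2 at -0.31, and RFX4 had no count in any library. Of the Hedgehog pathway, a signal that runs through the primary cilium, GLI2, GLI3 and HHIP had no count. PTCH1 (-0.45), SMO (-0.42) and SUFU (-0.27) were lower. Gene Ontology terms in the deposited annotation, looked at after seeing the data, gave a wider view of genes that are no members. Of 268 other tested genes whose terms hold the word cilium, 133 were higher and 50 lower, and of 312 with centrosome in a term, 107 were higher and 93 lower, by edgeR's quasi-likelihood test. Over all tested genes 34.4% were higher and 34.7% lower. The share called higher among genes with centrosome in a term lay near that of all genes.

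**Figure D4:**
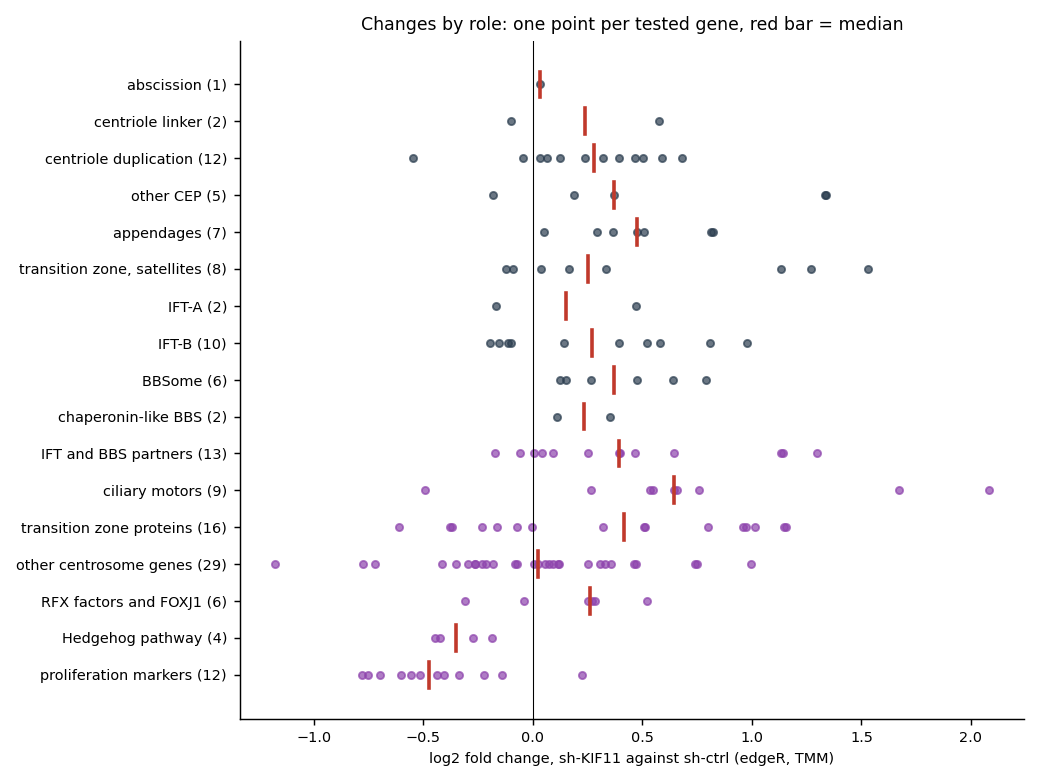
Log2 fold change (x axis) of every tested gene, one point each, grouped by role, with the number of tested genes in brackets and a red bar at the median; dark points are the CEP, IFT and BBS genes, purple points are genes of related lists. The ciliary motors have a median of 0.64, other centrosome genes 0.02 and proliferation markers -0.48.

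Promoter sequences were available from RefSeq (GRCh38.p14) for 51 of the 58 members, as 250 bases before and 50 after the start of each gene. They were searched on both strands for TTTGAA, the core of the cell cycle homology region through which many mitotic genes are repressed in resting cells. It was found in 12 of 31 CEP promoters (38.7%), in 1 of 13 IFT promoters and in 0 of 7 BBS promoters, against 9.83% of the promoters of tested genes and 15.4% of all 27305 promoters. These matches are printed, 1 for each CEP gene with a match ahead of its RefSeq start, to show how they lie on the strand of the gene, 5′ to 3′, with the motif or its reverse complement in capitals.
CEP55 (chr10:93496488-93496509, plus strand): ctccgcccTTCAAAggcggcag
CEP152 (chr15:48811235-48811256, minus strand): cgcccgctTTCAAAcagccgta
CEP192 (chr18:12991160-12991181, plus strand): ttcctcgcTTCAAAtccaggaa
CEP290 (chr12:88142202-88142223, minus strand): ctctgggaTTTGAAgtcctcgt
CEP295 (chr11:93661626-93661647, plus strand): gcgggcggTTTGAAtgacggaa
CEP57 (chr11:95789939-95789960, plus strand): aaatccgcTTTGAAcctgcccc
CEP89 (chr19:32972088-32972109, minus strand): ggcggggaTTTGAAcggtaccc

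These genes ran from CEP57 at 0.03 and CEP55 at 0.03 to CEP290 at 1.27. The 12 CEP genes with a match had 8 higher, 0 lower and 4 not called by edgeR's quasi-likelihood test, with a median log2 fold change of 0.36. The 19 tested CEP genes whose promoter lacked it had 13 higher, 1 lower and 5 not called, with a median of 0.37. An RFX-type X-box, searched as GTTNCC followed after any 2 bases by GGNAAC, was found in the promoter of 1 member, CEP135, and in 0.458% of all promoters. Only this form was searched, so sites with other bases or spacing could not be found, and their absence was not tested. The match in CEP135 begins 57 bases ahead of the start and is shown with the motif in capitals.
CEP135 (chr4:55948880-55948909, plus strand): ccgctcccGTTACCGGGGCAACcgcggcgc

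The members differ from other genes in base composition and length, and both moved with the changes of all genes in these libraries. The longest coding transcript of the members had a median GC content of 41.4% and a median length of 4027 bases, against 49.1% and 3365 bases over tested genes. Across the 55 members the log2 fold change had a Pearson r of -0.39 and a Spearman rho of -0.44 with GC content, and across all 12197 tested genes with a transcript -0.17 and -0.31, where genes are not independent replicates and share the same libraries. Members at or below their median GC content had a median change of 0.49 and were higher in 75% of cases. Other genes at or below that GC content had a median of 0.25, with 56.3% higher and 14.6% lower. Members above it had 0.13, with 40.7% higher and 7.41% lower, and other genes above it -0.07, with 28.7% higher and 40.4% lower. Among 1682 other genes within the quartiles of the members in both GC content and length, 46.1% were higher and 20.8% lower, and the median was 0.15.

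A further fit, chosen after seeing the data, removed a smooth trend over GC content and length from each library. It gave 15 CEP genes higher and 5 lower, 5 IFT genes higher and none lower, and 4 BBS genes higher and 1 lower. Of the higher genes, CEP131 (0.27), IFT22 (0.26) and BBS5 (0.24) had not been called with TMM alone. Nor had CEP57 (-0.21), CEP250 (-0.14) and BBS10 (-0.23) among the lower genes. The medians became 0.11, 0.17 and 0.21. Over all 12369 tested genes the same fit gave 4248 higher and 4039 lower, with a median of 0.02. CEP126 (1.2), CEP112 (1.15), CEP85L (1.0), CEP19 (0.87) and CEP290 (0.84) stayed among the highest CEP genes, as did IFT57 (0.81) and BBS1 (0.94), and CEP63 was at -0.74. The call was lost for CEP152, CEP192, CEP135, CEP97, CEP44, CEP41 and CEP350, for IFT80 and IFT88 and for BBS7, and also for CEP170B, 1 of the 2 members called lower, at -0.0055, and CEP78 turned to -0.20. Of the 32 members called higher, 21 were still called higher in this fit, and 20 (13 CEP, 4 IFT and 3 BBS genes) were called higher in every one of the 16 alternative fits. How far base composition and length account for the change of the members was not tested beyond this fit.

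**Figure D5:**
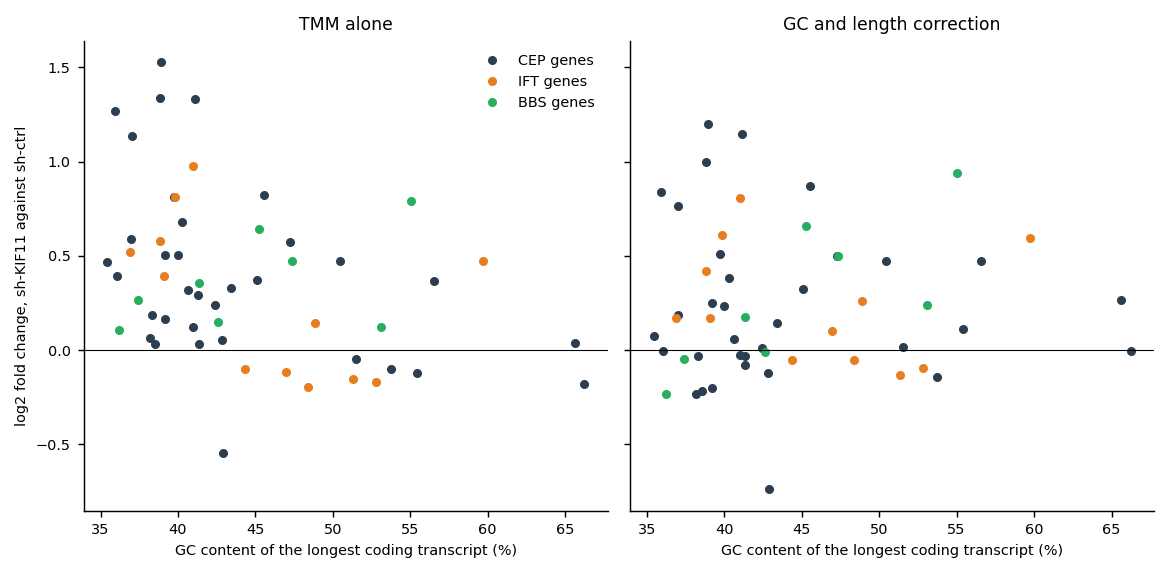
Log2 fold change of the members (y axis) against the GC content of its longest coding transcript in percent (x axis), with TMM scaling alone on the left and after removal of the trends over GC content and length on the right. On the left the members with the lowest GC content hold most of the largest values, CEP290 at 1.27 among them; on the right CEP290 is at 0.84 and the median of CEP genes is at 0.11.

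Scaling also mattered for the members near 0. By library totals alone the median of all tested genes was 0.24, with 6621 genes higher and 2373 lower against 4254 and 4294 with TMM, and limma on log2(FPKM + 1) gave 5635 higher and 2596 lower. Under every scaling the medians of the CEP, IFT and BBS genes were positive. The 58 members lie on 20 chromosomes, and 22 of them share exon bases with a gene on the opposite strand in GENCODE release 29. The libraries were made with a strand-specific kit, but the strand setting of the counting is not given in the sources used here, so such reads carry some uncertainty. Exon bases shared with a gene of the same strand were found for 7 members, where strand cannot separate the reads. For BBS5 they were 21.9% of its exon bases.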

How the data were processed

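Libraries of polyadenylated RNA from HepG2 cells (sh-ctrl and sh-KIF11, 3 each) were analysed. The authors deposited raw counts per gene, and for the same genes FPKM values already scaled to transcript length and depth. Per the labels, the submitters' processing notes name bcl2fastq 1.8.4, Trimmomatic, HISAT2 2.1.0, HTSeq 0.9.1, Cufflinks 2.2.1, DESeq and GRCh38, without their roles. Columns named only shRNA were taken as sh-KIF11.

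Counts were fitted in R 4.3.3 with edgeR 4.0.16 (filterByExpr, TMM, quasi-likelihood test, two-sided, group as the only term, Benjamini-Hochberg adjustment over 12369 genes, threshold 0.05). Depth was 18167773 to 19583282 counts per library. Counts are printed for members with the largest called changes without overlap (8 CEP, 4 IFT, 3 BBS), for members standing for a role, and for those with at most 10 counts in every library. Members and lists were chosen with earlier results of these data known. Alternatives were other scalings and filters, a replicate block, DESeq2 1.42.0, limma 3.58.1 on log2(FPKM + 1) and log2(FPKM + 0.1), each library left out, an adjusted p under 0.01 and a GC and length correction. The fits were tested on simulated counts in which few genes were set to change, as many higher as lower. Such counts cannot check the scaling of data in which most genes changed. A few single genes are counted in their groups but not reported here. Positions and transcripts come from GENCODE release 29. With 3 libraries against 3, an exact permutation test cannot go below p = 0.1.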

Additional observations from a re-analysis of the deposited data

How the results depend on the processing

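The medians of the CEP, IFT and BBS genes stayed positive in all 16 alternative fits, and KIF11 stayed lower (without one library each, between -0.79 and -0.69). DESeq2, its size factors and the unfiltered table changed no family count by over 1.5 times. Leaving out 1 library gave between 7975 and 8749 called genes against 8548, between 21 and 22 CEP genes higher and between 2 and 4 lower, 6 IFT genes higher and between 0 and 2 lower, and between 3 and 4 BBS genes higher and 0 lower. CEP250 was among the additional lower CEP genes without sh-ctrl replicate 3, and the lower IFT genes were IFT52 without sh-ctrl replicate 1 and IFT122 and IFT172 without sh-ctrl replicate 3. The medians then lay between 0.31 and 0.37 for CEP, 0.23 and 0.33 for IFT and 0.24 and 0.38 for BBS genes. Single genes that crossed 0 were CEP128 (-0.058 to 0.13), CEP131 (-0.014 to 0.10) and IFT52 (-0.17 to 0.0049). At an adjusted p under 0.01, 21 CEP, 6 IFT and 3 BBS genes were higher and 2 CEP genes lower. With at least 10 counts in every library the CEP median was 0.36.

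By upper-quartile scaling 1 CEP gene was lower, the medians of CEP and BBS genes were 0.41 and 0.39, and CEP85 turned to 0.033. By library totals alone 73.6% of the called genes were higher (49.8% with TMM), 1 CEP gene was lower, 7 BBS genes were higher and the medians were 0.56 (CEP), 0.50 (IFT) and 0.54 (BBS). The following turned positive there: CEP170B 0.049, CEP250 0.13, CEP72 0.11, CEP85 0.18, IFT122 0.064, IFT172 0.078, IFT20 0.12, IFT46 0.036 and IFT52 0.13. With limma on log2(FPKM + 1), 68.5% of called genes were higher, 1 CEP gene was lower and the CEP median was 0.25. CEP170B was then 0.049, CEP250 0.031, CEP72 0.069, CEP85 0.088, IFT172 0.026, IFT46 0.00063 and IFT52 0.071. With log2(FPKM + 0.1), 68.6% were higher, 1 CEP gene was lower, and the CEP and IFT medians were 0.44 and 0.37. CEP170B was then 0.055, CEP250 0.036, CEP72 0.11, CEP85 0.097, IFT172 0.040, IFT46 0.0024 and IFT52 0.077. The median of all genes moved from 0.00 to 0.083 by upper-quartile scaling and to 0.24 by library totals alone. It was 0.12 on log2(FPKM + 1) and 0.17 on log2(FPKM + 0.1).

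The GC and length correction, chosen after seeing the data, gave 5 CEP genes and 1 BBS gene lower, and medians of 0.11, 0.17 and 0.21 for CEP, IFT and BBS genes. The median of all tested genes was 0.02 there, with 4248 higher and 4039 lower. Turned values were BBS10 -0.23, BBS7 -0.049, BBS9 -0.0078, CEP128 -0.12, CEP135 -0.0068, CEP350 -0.030, CEP55 -0.076, CEP57 -0.21, CEP57L1 -0.23, CEP70 -0.031, CEP72 0.11, CEP76 -0.027, CEP78 -0.20, CEP85 0.015 and IFT20 0.10. The cause of these shifts was not tested. Libraries with the same number did not deviate together (correlations 0.03, -0.02 and -0.0025), so they were not taken as pairs. With the replicate block 8607 genes were called, 4296 higher and 4311 lower, the family counts were the same (22 CEP, 6 IFT and 4 BBS genes higher, 2 CEP genes lower), the medians were 0.34, 0.27 and 0.31 and KIF11 was at -0.75. Low counts limit what can be said of IFT27, IFT43 and CEP295NL, which had under 10 in every library, and of CEP112, which had 10 to 17 in sh-ctrl.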
